A study of Rattus norvegicus with 27 samples.

Results

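The nuclear genes for subunits of the mitochondrial respiratory chain and the ATP synthase were examined in the cerebellar interpositus nucleus of Long-Evans rats. Members were all genes of the count table whose symbol begins with Ndufa, Ndufb, Ndufc, Ndufs or Ndufv (complex I), Uqcr (complex III), Cox4 to Cox8 (complex IV) or Atp5 (complex V, the ATP synthase), with the 6 Ndufaf assembly factor genes left out. This gave 78 genes of 17321, of which 36 fell under complex I, 8 under complex III, 17 under complex IV and 17 under the ATP synthase. RNA was sequenced from tissue punched from frozen sections of 27 animals killed at postnatal day 70. Control litters (NT) had normal bedding, and limited bedding litters (LB) were raised with scarce nesting material from postnatal day 2 to 9, a rodent model of early-life stress. Among NT animals 5 were females and 7 males, and among LB animals 7 were females and 8 males. All were weaned into cages of 1 sex and 1 rearing condition.

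The respiratory chain passes electrons from NADH through complex I, complex III and cytochrome c to oxygen at complex IV, and the proton gradient this builds drives the ATP synthase. Each complex has a small catalytic core, partly encoded by mitochondrial DNA, and a larger set of nuclear accessory subunits, most of them short proteins. Neurons depend on this chain for most of their ATP, and the large projection neurons of the deep cerebellar nuclei, of which the interpositus is one, fire continuously. The prefixes are not a perfect guide to the protein. Ndufa4 is now regarded as a complex IV subunit, Cox7a2l helps to join complexes III and IV, and Atp5s and Atp5sl, now Dmac2l and Dmac2, are not subunits of the synthase itself. None of the mitochondrially encoded subunits looked for was among the genes counted.

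Many of these genes are known targets of NRF1, of the ETS-family factor NRF2 (GABP) and of YY1. Windows of 300 bases (250 before and 50 after the annotated start, RefSeq, build GRCr8) were at hand for 65 of the 78 members on the chromosome of the counted gene and were searched on both strands for 1 short core per factor. GCGCATGC, the NRF1 core, was in 12.3% of the 65 windows against 2.5% of all 33469 windows. CCGGAAG, an ETS core, was in 26.2% against 8.7%, and ATGGCGGC, a YY1 core, in 12.3% against 2.5%. In all 26 members held at least 1 of these, and windows without them may hold other forms. The windows below were chosen because they hold a core, in capitals, and because they contrast 2 genes for short subunits that were higher in NT males (Uqcrh, Atp5j) with 2 genes for large core subunits that were not called (Ndufs1, Uqcrc1). They lie at chr5:134790833-134791132 (Uqcrh, minus strand), chr11:37375052-37375351 (Atp5j, now Atp5pf, minus strand), chr9:72073556-72073855 (Ndufs1, minus strand) and chr8:118467973-118468272 (Uqcrc1, plus strand) and are written 5′ to 3′ on the strand of the gene.
Uqcrh: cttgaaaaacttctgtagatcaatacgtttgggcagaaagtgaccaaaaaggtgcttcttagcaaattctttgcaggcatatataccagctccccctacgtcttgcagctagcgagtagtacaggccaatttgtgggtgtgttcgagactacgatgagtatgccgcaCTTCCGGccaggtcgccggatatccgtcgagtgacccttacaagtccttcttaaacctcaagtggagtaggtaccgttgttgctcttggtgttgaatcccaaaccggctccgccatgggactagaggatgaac
Atp5j: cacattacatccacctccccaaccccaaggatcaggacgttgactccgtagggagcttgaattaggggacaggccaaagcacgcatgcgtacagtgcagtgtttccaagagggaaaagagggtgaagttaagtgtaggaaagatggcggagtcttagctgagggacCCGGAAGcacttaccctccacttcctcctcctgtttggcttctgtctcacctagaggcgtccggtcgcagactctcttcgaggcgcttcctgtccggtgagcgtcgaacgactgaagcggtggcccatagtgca
Ndufs1: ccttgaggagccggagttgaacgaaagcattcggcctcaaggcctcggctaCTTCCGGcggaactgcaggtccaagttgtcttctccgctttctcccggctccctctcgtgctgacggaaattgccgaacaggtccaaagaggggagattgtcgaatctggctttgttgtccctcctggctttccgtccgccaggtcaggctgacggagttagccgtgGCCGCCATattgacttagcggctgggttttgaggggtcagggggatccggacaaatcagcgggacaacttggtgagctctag
Uqcrc1: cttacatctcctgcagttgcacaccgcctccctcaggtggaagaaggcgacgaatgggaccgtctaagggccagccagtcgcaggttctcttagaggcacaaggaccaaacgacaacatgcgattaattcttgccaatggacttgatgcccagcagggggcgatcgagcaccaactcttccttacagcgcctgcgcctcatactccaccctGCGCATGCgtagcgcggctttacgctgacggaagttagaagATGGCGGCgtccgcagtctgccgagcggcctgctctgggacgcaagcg
Uqcrh and Atp5j hold the ETS core, Ndufs1 holds the ETS and YY1 cores and Uqcrc1 the NRF1 and YY1 cores, with no overlap between cores in a window. Of the 62 members searched and tested, 8 were called between NT males and NT females, where 15.2% of all tested genes were called. Of those 8, only Uqcrh and Atp5j were among the 24 tested members with a core. The cores were thus found in called and uncalled genes, and whether they go with the calls was not tested.

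Levels are given as counts per 1000000 gene counts of a library (CPM) after normalization between libraries, and levels of different genes only as CPM per kb of annotated exon. Libraries held 11836684 to 24169170 gene counts. Summed on this scale, the members averaged 2.10% of 1000000 CPM, from 1.41% in LB female 8021 to 3.35% in LB female 5022. Because of the normalization this is not the exact share of the counts of a library. The ATP synthase genes came to 0.747% on this scale and the complex I genes to 0.683%, against 0.465% for complex IV and 0.204% for complex III.

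Per kb of exon, Cox4i1, a regulatory nuclear subunit of cytochrome c oxidase, was the highest member at 1695 CPM per kb. Cox6a1 followed it in complex IV at 1076 CPM per kb. In the ATP synthase, Atp5b, the catalytic beta subunit, was at 1227 CPM per kb and Atp5l, subunit g of the membrane part, at 1023. In complex I the leading genes were Ndufa4 (659 CPM per kb) and Ndufb9 (636 CPM per kb), and in complex III Uqcr11 (751 CPM per kb) and Uqcrh, the hinge protein (530 CPM per kb). Across tested members the median was 577 CPM per kb in complex IV and 617 in the ATP synthase, against 206 in complex I and 230 in complex III. The order of these medians came from members of unequal number and length, and no test was made of it.

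**Figure D1:**
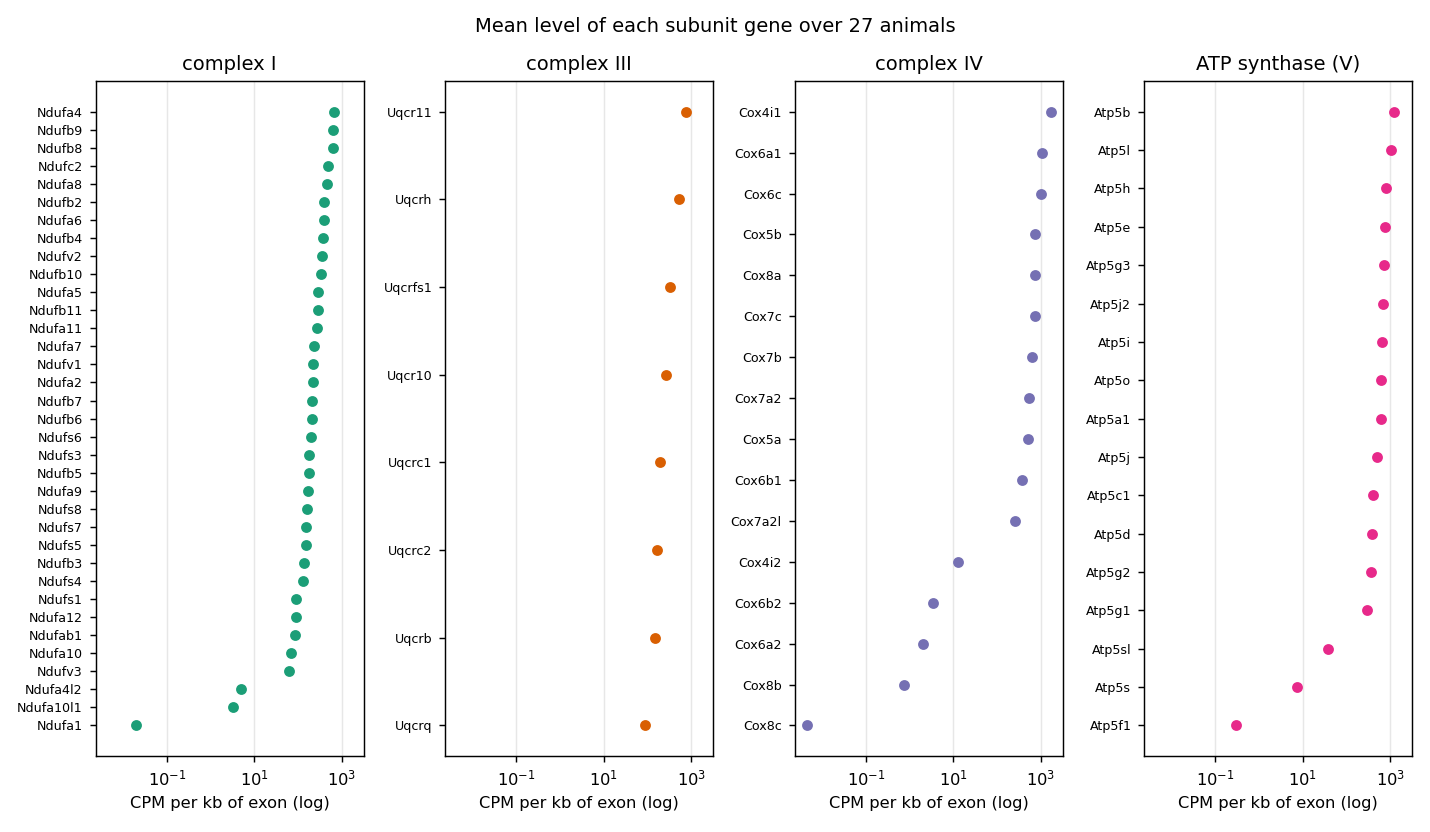
Mean level of each member over 27 animals in CPM per kb of annotated exon, on a log axis, 1 panel per complex; Cox6c-ps1, listed at 0, and 1 complex I gene are not drawn. Within each complex most genes lie close together, and isoforms of other tissues and Ndufa1 and Atp5f1 lie far below.

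Where a subunit has tissue isoforms, 1 of them made up nearly all of the signal. Cox4i1 stood at 1695 CPM per kb against 13.1 CPM per kb for Cox4i2, a form known from lung and from low oxygen. Cox6a1 stood at 1076 CPM per kb against 2.00 CPM per kb for Cox6a2, the heart and skeletal muscle form. Cox6b1 was at 375 CPM per kb and the testis form Cox6b2 at 3.44 CPM per kb. Cox8a was at 756 CPM per kb, while Cox8b was at 0.756 CPM per kb and Cox8c at 0.0044 CPM per kb. Ndufa4 was at 659 CPM per kb against 4.88 CPM per kb for Ndufa4l2, a gene known to be induced by low oxygen. By contrast all 3 genes for subunit c of the synthase ring, which encode the same mature protein, were well expressed, with Atp5g3 at 703 CPM per kb, Atp5g2 at 373 and Atp5g1 at 300. Cox7a2 was at 531 CPM per kb, and Cox7a1 was not among the genes counted.

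For some members the count is uncertain. Ndufa1, a subunit needed to assemble complex I, had 0 or 1 count per library and 7 in all, and Atp5f1, subunit b of the synthase stalk, had 4 to 20 counts per library. Both genes are annotated at 2 places with exons of the same lengths in the build of the files (rn6). Ndufa1 lies at chrX:123803116-123806760 and chrX:124513150-124516791, with 3 exons at each. Atp5f1 lies at chr2:208408890-208420164 and chr2:208566385-208577147, with 7 exons at each. How reads that match several places were treated is not given in the sources used here, so these low values cannot be read as low expression. The counted Ndufs6 lies at chr2:26471173-26471587, with 3 exons of 351 bases in all within 415 bases, while RefSeq (GRCr8) places the gene of this name on another chromosome. It was the only 1 of the 78 members with such a mismatch, and which place its reads come from was not tested. Cox7a2, Cox7b, Ndufa2 and Ndufs3 share 53 to 100 exon bases with a gene on the other strand, and whether strand was used in counting is also not given. After the filter on low counts 74 members were tested among 12107 genes, and Ndufa1, Cox6c-ps1, Cox8b and Cox8c were not.

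The members of the 4 complexes varied together from animal to animal. Each complex was scored per animal as the mean over its tested members of log2(CPM + 0.5), centred on the mean of the 27 animals. In complex I the score averaged -0.34 ± 0.12 (SD, n = 5) in NT females, -0.022 ± 0.24 (n = 7) in NT males, 0.0047 ± 0.41 (n = 7) in LB females and 0.23 ± 0.19 (n = 8) in LB males. All 5 NT females lay below 0, between -0.45 and -0.21. The LB females spanned the whole range, from -0.59 in animal 8021 to 0.73 in animal 5022, and overlapped every other group. NT males ran from -0.29 to 0.31 and LB males from -0.13 to 0.43. The LB males therefore lay above all NT females on the complex I score. Among LB females 5021, 5022 and 5023 lay from 0.11 to 0.73, and 8021, 8022, 8023 and 8024 from -0.59 to 0.031. The lowest NT males were 6111 and 6112, at -0.29 and -0.28. Each of these sets shares a title prefix. In NT females such sets overlapped, and in LB males too, except that 7121 and 7122 lay below 9121, 9122 and 9123. The SDs take each animal as 1 unit and leave this out.

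In the other complexes too NT females had the lowest mean and LB males the highest. Complex IV had the widest spread, from a mean of -0.46 ± 0.12 in NT females to 0.29 ± 0.24 in LB males, with NT males at 0.018 ± 0.31 and LB females at -0.019 ± 0.47. For complex III the means were -0.35 ± 0.14 in NT females, -0.047 ± 0.26 in NT males, -0.012 ± 0.34 in LB females and 0.27 ± 0.23 in LB males. For the ATP synthase they were -0.32 ± 0.12, -0.052 ± 0.28, 0.012 ± 0.38 and 0.23 ± 0.21 in the same order. Over the 27 animals the scores of any pair of complexes correlated with a Pearson r of 0.969 to 0.987, with Spearman rho of 0.979 to 0.990. These animals share a library, a depth and a punch for every gene, so the correlation is given as a description only.

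**Figure D2:**
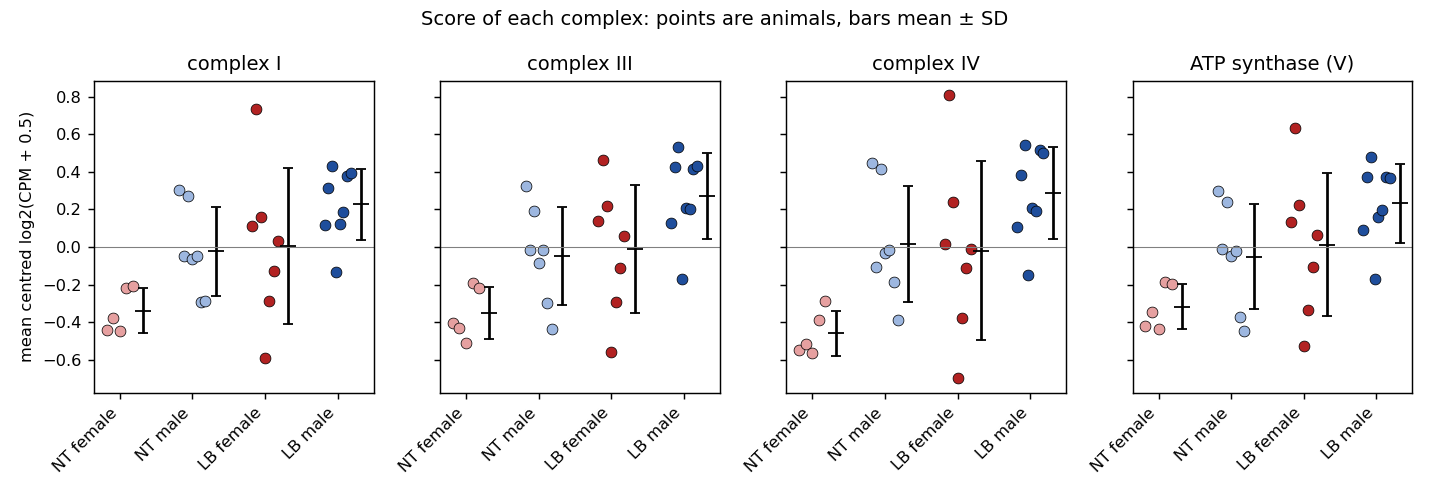
Score of each complex (mean centred log2(CPM + 0.5) of its tested members), with 1 point per animal and mean ± SD beside each group (n = 5, 7, 7 and 8). In every panel the NT females lie below 0 and the LB females reach from the lowest to the highest value or close to it.

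By the median, the spread of single genes was larger for shorter genes. The standard deviation of log2(CPM + 0.5) over the 27 animals had a median of 0.44 for the 51 tested members with under 1 kb of exon and 0.23 for the 23 longer ones. Among all tested genes the medians were 0.41 for the 1154 genes under 1 kb and 0.35 for the 10953 longer ones. Ndufb2, an accessory subunit with 457 exon bases, varied with an SD of 0.61 and Atp5e, the small epsilon subunit with 372 exon bases, with 0.58. Ndufa10 with 1985 exon bases varied with 0.16 and Atp5a1, the alpha subunit with 1848 exon bases, with 0.18. Some longer members went the other way. Uqcrq with 1494 exon bases varied with 0.54 and Ndufab1 with 2569 exon bases with 0.38. Ndufa10l1 with 1434 exon bases varied with 0.61, but rested on few counts, 22 to 223 per library.

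The first comparison asked whether the sexes differ under normal rearing. Of 74 members tested 11 passed an adjusted p of 0.05 between NT males and NT females (quasi-likelihood test of edgeR, Benjamini-Hochberg adjusted), and all 11 were higher in males. The share of members, 14.9%, was close to that of all genes: 15.2% of all tested genes passed, and 10.1% passed and were higher in males. Of the members 67 of 74 were above 0, against 6395 of 12107 genes, and their median log2 fold change was 0.39 against 0.029 for all genes. By complex, 5 of 35 tested members passed in complex I, 2 of 8 in complex III, 2 of 14 in complex IV and 2 of 17 in the ATP synthase. The medians were 0.34, 0.49, 0.46 and 0.30 in that order. Leaving out 1 animal gave 3 to 24 calls. It gave 3 without NT female 1011, 1013, 2011 or 2012 or NT male 3111 (6.08% to 9.69% of all genes), 4 without NT male 3113 (13.5%) and 6 without NT female 2013 (9.30%), but 23 without LB female 8021 (18.6%) and 24 without LB female 5022 (22.6%). Of the 9 called members named by rule, Uqcrb, Ndufb3 and Cox6a2 were called in all 27 such fits, Cox7b in 22, Ndufa5 and Uqcrh in 21, Ndufs6 and Atp5j in 20 and Atp5j2 in 18. In a bulk punch, fewer cells of a type and less RNA per cell cannot be told apart.

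In complex III the calls were Uqcrb and Uqcrh, both small subunits around the cytochrome core. Uqcrb measured 96.8, 115, 104, 98.0 and 119 CPM in the 5 NT females. In the 7 NT males it ran from 144 to 203 CPM with a median of 153. Every NT male lay above every NT female, and the log2 fold change was 0.56 ± 0.14 (SE) with an adjusted p of 0.014 by edgeR. Uqcrh measured 182 to 235 CPM in NT females and 246 to 358 CPM in NT males, again with no overlap, with a log2 fold change of 0.51 ± 0.16 and an adjusted p of 0.036 by edgeR.

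In complex I the calls with the smallest adjusted p were Ndufb3, Ndufa5 and Ndufs6, all accessory subunits. Ndufb3, of the membrane arm, measured 57.2, 64.8, 58.0, 56.6 and 73.0 CPM in the NT females and 76.5 to 145 CPM (median 97.3) in the NT males. The groups did not overlap, and the log2 fold change was 0.69 ± 0.18 with an adjusted p of 0.018 by edgeR. The counts under Ndufs6, the name of a short zinc-binding subunit, stood at 39.4, 45.3, 43.0, 46.5 and 46.1 CPM in the NT females. They stood at 58.6 to 97.1 CPM (median 65.4) in the NT males, all above the females, with a log2 fold change of 0.70 ± 0.22 and an adjusted p of 0.037 by edgeR. For Ndufa5 the fold change was 0.48 ± 0.15 with an adjusted p of 0.037 by edgeR. Ndufa8 and Ndufs5 also passed, at 0.55 and 0.62.

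In the ATP synthase, Atp5j (coupling factor 6, in the stalk) and Atp5j2 (subunit f, in the membrane) passed. Atp5j measured 166, 194, 179, 182 and 202 CPM in the NT females and 228 to 378 CPM (median 267) in the NT males. The groups did not overlap, and the log2 fold change was 0.59 ± 0.19 with an adjusted p of 0.037 by edgeR. Atp5j2 differed by 0.61 ± 0.20 with an adjusted p of 0.043 by edgeR.

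In complex IV, Cox7b and the muscle isoform Cox6a2 passed. Cox7b measured 165 to 222 CPM in NT females and 218 to 403 CPM in NT males. The lowest male thus lay within the female range, and the log2 fold change was 0.55 ± 0.17 with an adjusted p of 0.029 by edgeR. Cox6a2 rested on very few counts, with 3, 1, 3, 3 and 4 counts in the NT females and 14, 5, 48, 6, 10, 69 and 14 in the NT males. The ratio of the pooled levels was 10.2, with an exact 95% interval of 5.91 to 19.07 that covers counting error only. The fitted log2 fold change was 3.31 ± 0.78 with an adjusted p of 0.012 by edgeR. Animals 6111 and 3113 held most of the male counts.

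The catalytic and other large core subunits named by rule in complexes I, III and V had more than 1 kb of exon and gave other values. Ndufs1, the largest subunit of complex I, measured 233, 239, 258, 218 and 242 CPM in the NT females and 181 to 316 CPM (median 205) in the NT males. The groups overlapped, and the log2 fold change was -0.093 ± 0.13 with an adjusted p of 0.64 by edgeR. Atp5a1 measured 1200 to 1232 CPM in NT females and 819 to 1334 CPM in NT males, with a log2 fold change of -0.20 ± 0.11 and an adjusted p of 0.19. Atp5b differed by -0.13 ± 0.12. Uqcrc1, a core protein of complex III, differed by -0.011 ± 0.14. Uqcrfs1, the Rieske iron-sulfur protein, differed by 0.064 ± 0.16. The complex I subunit Ndufv1, which binds NADH, differed by 0.089 ± 0.15. None of these passed the test. Core subunits of complex I outside the rule, with 723 to 1056 exon bases, had higher medians in NT males but were not called either. Ndufv2 measured 220 to 258 CPM in NT females and 270 to 387 CPM in NT males, with no overlap. Medians in NT females and NT males were 145 and 177 CPM for Ndufs3, 88.2 and 112 CPM for Ndufs7, and 90.1 and 114 CPM for Ndufs8, with overlapping ranges. In complex IV the regulatory subunit Cox4i1 differed by 0.36 ± 0.22 and Cox5a by 0.43 ± 0.18, with adjusted p of 0.26 and 0.092 by edgeR. Over the settings with all animals the log2 fold change ran from -0.20 to 0.084 for Ndufs1, from -0.24 to 0.040 for Uqcrc1, from -0.19 to 0.14 for Ndufv1, from -0.18 to 0.14 for Uqcrfs1 and from -0.087 to 0.42 for Cox4i1, so that no direction can be given for these genes.

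**Figure D3:**
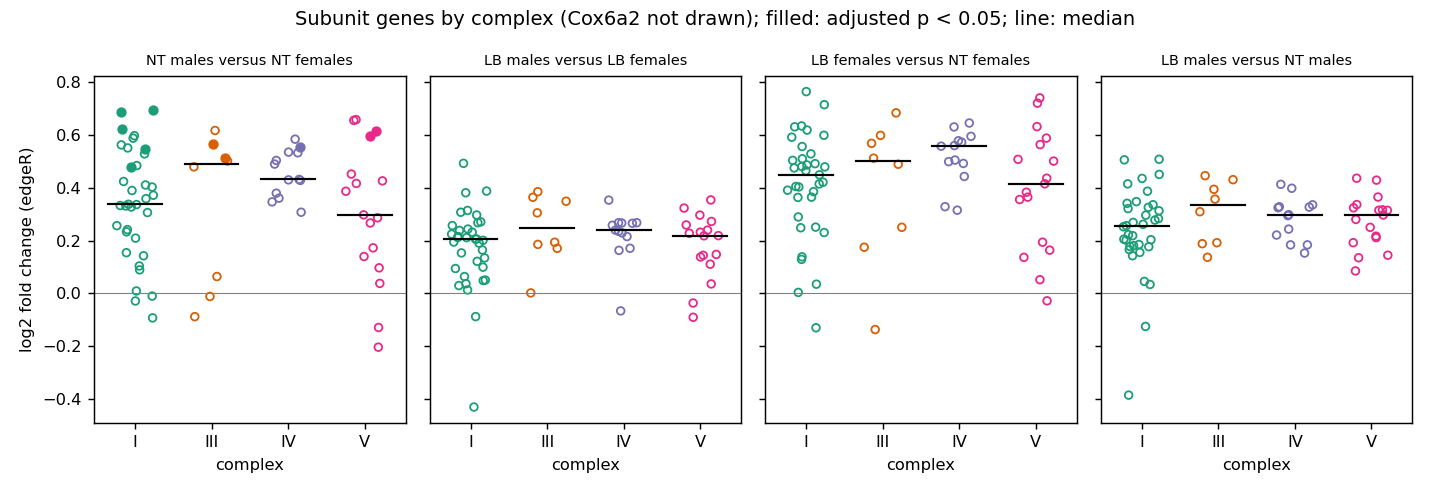
Log2 fold change of each tested member by complex in 4 comparisons (Cox6a2 not drawn, which was called in the first panel at 3.31), with filled points at adjusted p under 0.05 and a line at the median. Most points lie above 0 in all panels, and filled points are in the first panel alone; the 4 panels share groups.

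Several cell type marker lists had calls in this comparison as well. The 10 granule cell markers summed to 7021 to 8093 CPM in NT females and 2457 to 7121 CPM in NT males, and 5 of 10 passed the test, all lower in males. The 9 oligodendrocyte markers summed to 7841 to 12020 CPM in NT females and 11420 to 53120 CPM in NT males, and 9 of 9 were higher in males. Of the 10 deep nucleus neuron markers 7 passed, 6 of them higher in males, with sums of 2886 to 3222 CPM in NT females and 2514 to 6576 CPM in NT males. None of these 3 lists had a marker at 0 in any animal. Of the other marker lists 6 of 9 Purkinje cell genes were lower in males, 4 of 8 microglia genes, 3 of 7 meninges genes and 3 of 5 choroid plexus genes were higher, 3 of 8 astrocyte genes passed (1 of them lower), and 0 of 6 endothelial genes passed. The part of these markers in the member calls was not tested beyond the following fit. With a composition score (deep nucleus minus granule cell markers) as a covariate 0 of 74 members passed, and 0.0248% of all genes. Over the 27 animals this score correlated with the 4 complex scores with r from 0.21 to 0.34 (Spearman rho 0.51 to 0.60). Within groups r lay between -0.30 and -0.12 in NT males, 0.84 and 0.94 in LB females, and 0.39 and 0.47 in LB males. As nearly all calls among all genes were lost as well, the fit says little about the members in particular. With the title prefix, which takes 10 values that each occur in 1 group only, as a random block 0 members passed, and 0.0165% of all genes. The median log2 fold change of the members was 0.23 with the covariate and 0.36 with the block.

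Within LB, the same comparison of males and females called 0 of 74 members, and 0.248% of all genes. By edgeR 6 members had an unadjusted p under 0.05, or 8.11%, against 17% of all genes, while DESeq2 called 0 members and 3.37% of all genes. The median log2 fold change of the members was 0.22, and 69 of 74 were above 0. The smallest p belonged to Uqcrb and Ndufb3, neither of which passed. Uqcrb ran from 86.8 to 194 CPM (median 159) in LB females and from 159 to 228 CPM (median 198) in LB males, with a log2 fold change of 0.39 ± 0.12 and an adjusted p of 0.12 by edgeR. The ranges overlapped. Without LB female 5022, 10 members passed, all higher in males, against 8.64% of all genes. That animal had the highest scores of the LB females on these same members, so leaving it out lowers their mean in LB females by itself.

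Over both rearing conditions, 25 of 74 members passed between males and females, or 33.8%, all higher in males. Of all genes 29.3% passed, and 16.9% passed and were higher in males. By complex 12 of 35, 3 of 8, 5 of 14 and 5 of 17 passed in the order I, III, IV and V. Uqcrb led with a log2 fold change of 0.48 ± 0.09 and an adjusted p of 0.0017 by edgeR, followed by Ndufb3 at 0.59 ± 0.12 and Cox6a2 at 2.29 ± 0.49. With the title prefix as a block Uqcrb, Ndufb3, Cox7b, Ndufa5 and Atp5j passed, 5 in all, against 8.50% of all genes, and with the composition covariate 0, against 0.0496%. The interaction of sex and rearing called 0 members and 0% of all genes by edgeR, and 0 members by DESeq2. Only Cox6a2 had an unadjusted p under 0.05 (1.35% of members against 4.71% of all genes), with a log2 difference of -2.03 ± 0.96. The sex difference under LB was thus not shown to differ from that under NT.

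The comparison the study was built for, LB against NT, called no member in either sex. In females 0 of 74 passed by edgeR and by DESeq2, against 0.00826% of all genes. Yet 50 members, or 67.6%, had an unadjusted p under 0.05 against 7.94% of all genes, and 71 of 74 were above 0 with a median log2 fold change of 0.48. The members varied together and had a median of 645.5 exon bases against 2197 for all tested genes, so these are not 50 separate results. Ndufs6 ran from 35.2 to 155 CPM (median 66.6) in LB females against 39.4 to 46.5 CPM in NT females. The ranges overlapped through LB female 8021, and the log2 fold change was 0.76 ± 0.22 with an adjusted p of 0.58 by edgeR. Uqcrb differed by 0.49 ± 0.14, with the same adjusted p. In males 0 of 74 passed by edgeR and by DESeq2, and 0% of all genes; 10 members had an unadjusted p under 0.05, or 13.5% against 10% of all genes, with a median of 0.28. Uqcrfs1 (0.36 ± 0.14) and Uqcrb (0.31 ± 0.12) had the smallest p, with an adjusted p of 0.46 by edgeR.

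In both sexes pooled, 0 of 74 members passed between LB and NT by edgeR and by DESeq2, against 0.00826% of all genes, with a smallest adjusted p of 0.18. An unadjusted p under 0.05 was reached by 61 members, or 82.4%, against 14.9% of all genes, and 72 of 74 were above 0 with a median of 0.38 against -0.0051 for all genes. The leading genes were Uqcrb at 0.40 ± 0.09 and Ndufa12, an accessory subunit of complex I, at 0.36 ± 0.10. Ndufa12 measured 29.2 to 41.5 CPM in NT females, 40.9 to 58.9 CPM in NT males, 34.6 to 80.9 CPM in LB females and 47.6 to 63.7 CPM in LB males. Without LB female 8021, 27 members passed, all higher in LB, against 2.73% of all genes. That animal had the lowest scores on these same members, so leaving it out raises their LB mean by itself. Uqcrb and Ndufa12 were each called in 1 of the 27 fits that left out 1 animal. These comparisons share their groups, so agreement between them is not counted as support.

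The differences between groups followed the length of the gene. Between NT males and NT females the median log2 fold change was 0.45 for the 51 members with under 1 kb of exon, all of them above 0, and 0.097 for the 23 longer ones. All tested genes showed 0.35 under 1 kb and -0.00044 from 1 kb. Of the shorter members 10 passed and of the longer ones 1 (Uqcrb), or 19.6% and 4.35%, against 19.3% of all genes under 1 kb and 14.8% of all genes from 1 kb. Between all males and all females 21 of 51 and 4 of 23 passed, or 41.2% and 17.4%, against 40.7% and 28.1% of all genes. In each length class the share of members called was therefore near or below that of other genes. Between LB and NT, an unadjusted p under 0.05 was reached by 48.7% of all genes under 1 kb and by 11.3% of all genes from 1 kb, against 94.1% of the shorter and 56.5% of the longer members. Across the 74 members the log2 fold change correlated with log2 exon length with r = -0.48 for NT males over NT females, -0.70 for LB over NT females, -0.42 for LB over NT males and -0.75 for all LB over all NT. Across all 12107 genes r was -0.14, -0.32, -0.24 and -0.36 in that order. Genes are not independent replicates, and no p is given.

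**Figure D4:**
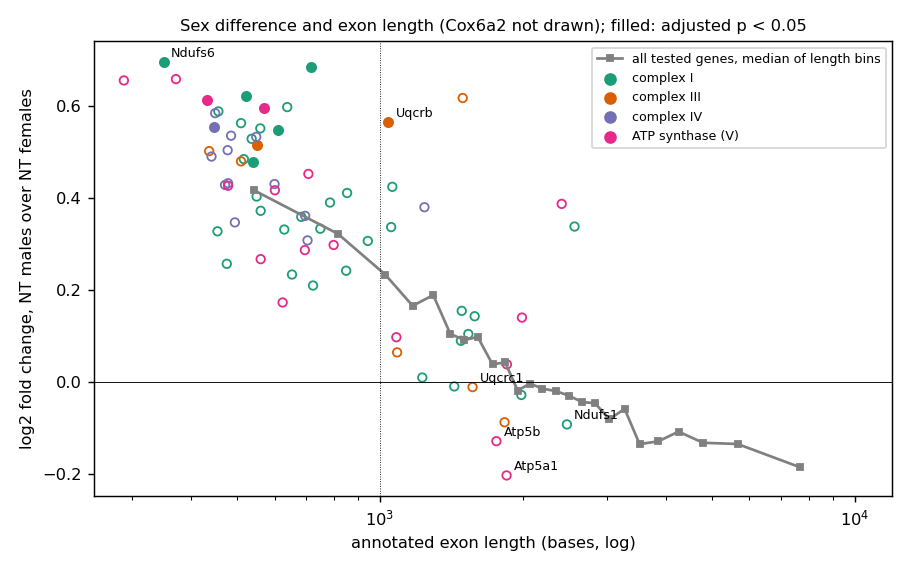
Log2 fold change between NT males and NT females against annotated exon length (log axis, with a dotted line at 1 kb) for tested members by complex, filled at adjusted p under 0.05, with the median of all tested genes in bins of length in grey. Both fall with length, and Atp5a1, Atp5b and Ndufs1 lie below 0 while all members under 1 kb lie above it.

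The same relation held between animals. For each animal the slope of centred log2 CPM on log2 exon length was taken over tested genes that are no members. It averaged 0.11 ± 0.036 per doubling of length in NT females, 0.00092 ± 0.088 in NT males, 0.011 ± 0.15 in LB females and -0.078 ± 0.060 in LB males. Over the 27 animals it correlated with the 4 complex scores with r from -0.978 to -0.939, and without the 2 animals farthest from its median with r from -0.967 to -0.949. Within each of the 3 larger groups r lay between -0.995 and -0.890. With this slope as a covariate the median log2 fold change of the members fell to 0.032 between NT males and NT females and to 0.072 between all LB and all NT. In that fit 5 of 74 members passed in the NT comparison, against 10.6% of all genes, with Uqcrb and Cox6a2 higher in males and Atp5b, Ndufa9 and Uqcrc1 lower. Uqcrb then stood at 0.40 ± 0.12 with an adjusted p of 0.039 and Atp5b at -0.30 ± 0.09 with an adjusted p of 0.034 by edgeR. Beyond this covariate, the part of the slope in the group differences was not tested.

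Genes of the ribosomes varied with the members. The 79 tested cytosolic ribosomal protein genes had a median log2 fold change of 0.41 for NT males over NT females, where 4 were called, and 0.46 between all LB and all NT, with 0 called. The 68 tested mitochondrial ribosomal protein genes had 0.27 with 6 called, and 0.25 with 0 called. In the first comparison Rps24 differed by 0.61 ± 0.18 and Mrpl42 by 0.55 ± 0.13, both with an adjusted p under the threshold (0.027 and 0.012 by edgeR). Over the 27 animals the complex scores correlated with the cytosolic ribosome score with r from 0.964 to 0.982.

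**Figure D5:**
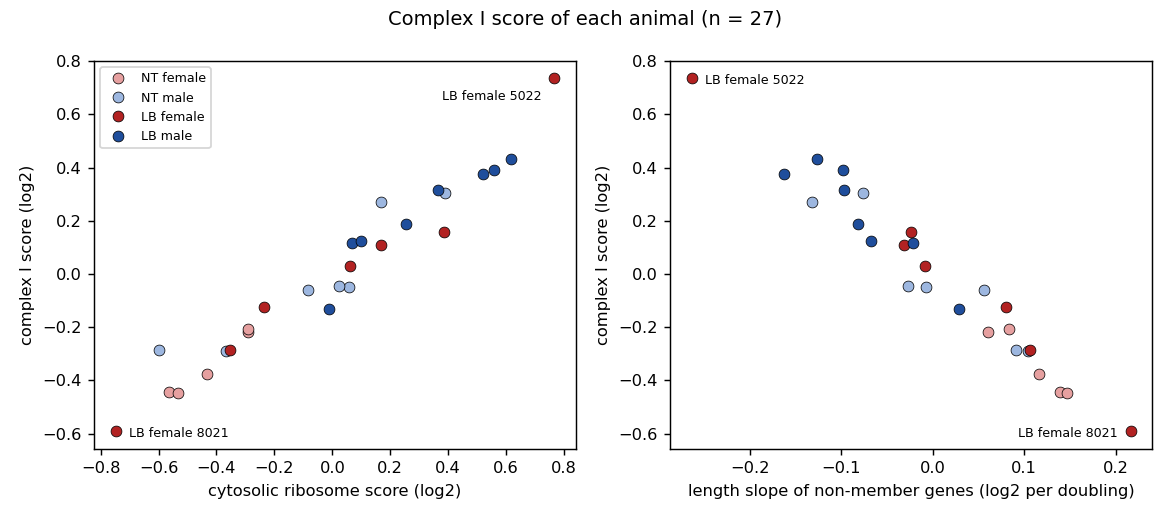
Complex I score of each of 27 animals against the cytosolic ribosome score (left) and the slope of non-member genes on exon length (right), coloured by group. The points follow a rising and a falling line, with LB female 8021 and LB female 5022 at the ends.

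Other genes of energy metabolism were counted in lists. Of the 4 complex II genes, which feed electrons from succinate, 0 passed between the NT sexes, with a median of 0.22, and Sdhd differed by 0.26 ± 0.14. Of cytochrome c and cytochrome c1 (Cycs and Cyc1) 0 of 2 passed, at 0.23 and 0.049. Of 31 tested assembly factors 2 passed, both higher in males, the copper chaperone Cox17 at 0.69 ± 0.23 and Lyrm7 at 0.45 ± 0.13, with a list median of 0.075. In the pyruvate dehydrogenase and citric acid cycle list 1 of 15 passed, Suclg2 at 0.51 ± 0.13, with a median of 0.0037. Of 16 glycolysis genes 0 passed, with a median of 0.11. Of 11 known regulators of respiratory genes 2 passed and were lower in males, Nrf1 at -0.72 ± 0.17 and Ppargc1b at -0.91 ± 0.29. In the treatment comparisons none of these lists had a call.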

How the data were processed

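Tissue punches of the interpositus nucleus from 27 rats were sequenced as mRNA libraries. The authors aligned reads with STAR 2.5.2b to rn6 and deposited gene counts made with featureCounts (Subread 1.5.1), with exon coordinates and the exon length in bases. Whether strand was used and how multiple matches were treated is not given in the sources used here. The authors left out samples below a cut on RNA integrity. Values for the samples kept are not given in the sources used here. The part of RNA integrity in the dependence on gene length was not tested.

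Counts were tested with edgeR 4.0.16 (R 4.3.3) by the quasi-likelihood test with Benjamini-Hochberg adjustment over all genes: filterByExpr (minimum count 10), TMM normalization and 1 fit of the 4 groups, with 7 contrasts. Alternatives used DESeq2 1.42.0 and limma 3.58.1 (voom), other scalings and filters, the covariates and block named in the text, and each animal left out. Fits were tested on simulated data. Libraries of a group differed by more than sampling noise (80 pairs). Each p measures spread between these animals, whose litters are not identified.

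Members and gene lists were chosen with earlier results of these data known. Named members were core subunits, Cox4i1 and Cox5a of complex IV, isoform pairs, and the 2 highest and the lowest per complex by CPM per kb. Also named were up to 3 calls per complex with the smallest adjusted p, and up to 2 genes per list. Where a comparison had no call, the 2 smallest p were named. Values of 1 member are not reported here; it is kept in the counts. Other genes named beyond this rule (Ndufa8, Ndufs5, Ndufb2, Atp5e, Ndufa10, Ndufa9, Ndufv2, Ndufs3, Ndufs7, Ndufs8, Ndufa10l1, Ndufab1) and the split at 1 kb were chosen after their values were seen.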

Additional observations from a re-analysis of the deposited data

Results flagged for a closer look

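In groups of 5 to 8 animals, 12 of 156 sets of values (39 measures in 4 groups) had a highest or lowest animal separated from the others by more than Dixon's limit, where chance gives about 1 in 20. In 9 of the 12 the animal was LB female 5022, which also had the highest score of complexes I, IV and V among all animals. Its values were 530 CPM for Ndufv1 (next animal of its group 353), 481 CPM for Uqcrc1 (340), 512 CPM for Cox5a (325) and 21.3 CPM for Cox4i2 (11.2). They were 1159 CPM for Cox6a1 (675), 751 CPM for Cox8a (437), 421 CPM for Atp5g2 (266), 155 CPM for Ndufs6 (79.6) and 80.9 CPM for Ndufa12 (52.8). NT male 3111, the animal with the fewest counts, stood apart with 145 CPM for Ndufb3 (next 103) and 203 CPM for Uqcrb (155). NT female 2012 stood apart with 2481 CPM for Atp5b (next 2174). The 4 complex scores had no such animal in any group, but they are on a log2 scale while the genes were taken in CPM.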

How the results depend on the processing

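Between NT males and NT females 11 members passed in the fit reported. DESeq2 gave 20 (20.5% of all genes), the transcript length covariate 5 (10.6%), and the title prefix block, the composition covariate and both covariates together 0 each (at most 0.0248%); limma-voom, other scalings, other filters and the groups compared alone gave 9 to 16 (10.3% to 15.9%). Between all males and all females (25) the block gave 5 (8.50%), the length covariate 9 (18.3%), and the composition covariate and both covariates 0 each (at most 0.0496%). The combined covariates were chosen after seeing the data, as were splits at 700 and 1500 bases. The other 5 comparisons had 0 calls in each fit with all animals.

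Leaving out 1 animal gave 3 to 24 calls between NT males and NT females, as listed above. It gave 13 to 52 between all males and all females: 13 without LB female 8022, 14 without NT female 1011, 1013 or 2011 or NT male 3111, 16 without NT male 3113, LB female 8023, LB male 123 or LB male 9123, and 52 without LB female 5022 (42.4% of all genes; 22.9% to 28.3% in the others named). It gave 0 to 10 between LB males and LB females (10 without LB female 5022), 0 to 1 between LB females and NT females and 0 to 27 between all LB and all NT (1 and 27 without LB female 8021). The cause was not tested.

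Some core subunits and the regulatory subunit Cox4i1 turned in sign between NT males and NT females. With the length covariate the log2 fold change was 0.084 for Ndufs1, -0.19 for Ndufv1, -0.18 for Uqcrfs1 and -0.087 for Cox4i1 (0.36 in the fit reported), and with both covariates -0.11 for Ndufv1 and -0.011 for Uqcrfs1. Uqcrc1 was at 0.0012 with DESeq2, 0.040 with upper-quartile scaling, 0.027 with at least 10 counts in every animal and 0.0027 with no filter. Leaving out 1 animal it ran from -0.077 to 0.053, and Ndufv1 from -0.010 to 0.15. The ATP synthase score of NT females moved to -0.19 when summed CPM replaced the mean over genes. No paired analysis was possible because the groups share no replicate numbers.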
